A study of Mus musculus with 2 samples.

Results

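Fgfr1 and the 3 ligand genes Fgf5, Fgf7 and Fgf10 were examined in stroma of organoids, three-dimensional cultures, made from mouse salivary gland. The 4 genes were chosen by name, out of 5238 genes listed in at least 1 of 3 deposited tables, and all 4 were found. They accounted for 48 of 21796 entries, with 18 in the table of the FGF2 library, 19 in that of the control library and 11 in the integrated table of both libraries. The groups were 1 library of organoids labelled FGF2 and 1 control library, both from salivary gland stroma of CD-1 mice. Their age is labelled as embryonic day 16 followed by +7, whose unit the sources used here do not state. According to the labels, 10107 FGF2 cells and 5023 control cells were captured for 3' single-cell RNA sequencing in droplets. The sources used here do not state the dose and timing of FGF2, the number of animals pooled or the sex of the embryos.

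Fibroblast growth factors are secreted ligands that bind receptor tyrosine kinases together with heparan sulfate on the cell surface. In the developing salivary gland, Fgf7 and Fgf10 are made by the mesenchyme and act on the epithelium through the IIIb splice form of Fgfr2, which drives budding and branching. Fgfr1 is the main FGF receptor of mesenchymal cells and, in its IIIc splice form, binds FGF2 and Fgf5. Fgf5 is best known as the signal that ends hair growth. Reads from the 3' end of transcripts do not tell splice forms apart.

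The authors' tables set each cluster of cells against the rest of the cells in that table, and give the share of cells with a count in each and the natural log ratio of the averages. A gene is listed for a cluster where that ratio is at least 0.25 in size, and in every entry of the library tables the larger of both shares was at least 25.1%, so a cluster that is not listed may still express the gene. Every ratio of averages below was read with an offset of 1 added to both averages. In the library tables, this brings it closer to 1 than without the offset. The depth per cell was unknown. Each group was 1 library, so differences between the libraries could not be checked against replicates and no test was made. Ranges in parentheses after a share are exact 95% binomial intervals. They use the part of the captured cells that falls in a cluster as the number of cells, which is an estimate, and cover counting error only.

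Clusters were named from markers and otherwise keep their number and leading genes. A cluster was non-stromal where at least 3 markers of 1 non-stromal type were listed as higher, and more than fibroblast markers. The remaining 13 of 17 FGF2 clusters and 10 of 15 control clusters are called stromal. Some of these were proliferating or contractile, and some, control cluster 4 among them, had no fibroblast marker listed as higher. Non-stromal clusters held 4.47% of the FGF2 cells and 5.85% of the control cells. FGF2 cluster 13 (1.41% of cells, led by Acta2 and Tagln) and control cluster 4 (10.6%, led by AY036118 and Gm42418) stood apart. The genes listed for them were found in a median of 12% and 10.9% of their cells, against 66.5% and 84.8% of the rest. For FGF2 cluster 10 (3.51%, led by Gm42418 and Malat1) and the epithelial-like control cluster 9 (2.83%) the medians were 14.4% and 7%, against 70.8% and 67.7%. Low values of the 4 genes in these clusters stand beside low values of most listed genes, and the part of depth was not tested.

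The 4 genes lie on different chromosomes of the mouse build GRCm38, in the RefSeq annotation, all on the plus strand. Fgfr1 is at chr8:25518759-25575718, Fgf5 at chr5:98254184-98277033, Fgf7 at chr2:126034658-126091185 and Fgf10 at chr13:118714699-118792573. In the GENCODE annotation, Fgf7 overlaps Fam227b, Fgfr1 overlaps Gm16159 and Fgf10 overlaps Gm16263, each on the minus strand and none of them listed in a table. The sources used here do not state how the counting handled strand, and reads of these partners were not examined. The 250 bases before the start site are shown for the 3 ligands, because Fgf7 and Fgf10 were listed in shared clusters with the same sign while Fgf5 was listed with the opposite sign. A gene as rare as Fgf5 could only be listed as higher, so its sign was fixed in advance. Sequences are from RefSeq, GRCm38.p6, plus strand, with every CG dinucleotide in capitals. They cover chr5:98253934-98254183 for Fgf5, chr2:126034408-126034657 for Fgf7 and chr13:118714449-118714698 for Fgf10.
Fgf5: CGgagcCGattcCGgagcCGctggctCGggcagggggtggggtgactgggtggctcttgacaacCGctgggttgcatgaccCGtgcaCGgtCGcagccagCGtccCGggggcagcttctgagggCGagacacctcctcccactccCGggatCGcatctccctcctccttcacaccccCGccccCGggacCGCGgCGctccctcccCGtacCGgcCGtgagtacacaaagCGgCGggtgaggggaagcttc
Fgf7: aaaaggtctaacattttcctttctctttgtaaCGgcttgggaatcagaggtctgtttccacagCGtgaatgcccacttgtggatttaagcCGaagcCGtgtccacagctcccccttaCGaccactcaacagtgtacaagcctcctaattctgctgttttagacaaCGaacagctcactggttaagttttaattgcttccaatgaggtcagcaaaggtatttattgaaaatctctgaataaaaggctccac
Fgf10: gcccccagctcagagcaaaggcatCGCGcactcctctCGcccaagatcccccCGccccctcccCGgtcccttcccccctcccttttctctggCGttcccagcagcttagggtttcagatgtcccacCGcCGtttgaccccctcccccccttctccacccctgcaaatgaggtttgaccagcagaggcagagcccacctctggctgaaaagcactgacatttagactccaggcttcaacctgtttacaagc
The Fgf5 stretch holds 24 CG dinucleotides at 70.8% G and C, the Fgf7 stretch 6 at 43.6% and the Fgf10 stretch 8 at 61.2%. Over 32851 promoters the medians were 6 and 52.4%, and 88.0% of promoters had fewer CG dinucleotides than that of Fgf5. The motif CCGGAA, the core bound by ETS factors, which act downstream of FGF receptors, was searched on both strands and itself contains a CG. It occurred once before Fgf5 and not before Fgf7 or Fgf10, and 12% of all promoters of this length held it. These are descriptions of the letters, and no promoter activity was measured.

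Over whole libraries, Fgf7 was found in a larger share of the FGF2 cells, and Fgfr1, Fgf10 and Fgf5 in a smaller share. Fgfr1 had a count in 71.2% of the FGF2 cells (70.3 to 72.1%) and 75.8% of the control cells (74.6 to 77.0%). Fgf7 had a count in 78.6% of the FGF2 cells (77.8 to 79.4%) and 61.8% of the control cells (60.4 to 63.1%). Fgf10 had a count in 32.2% of the FGF2 cells (31.3 to 33.1%) and 40.2% of the control cells (38.8 to 41.6%). None of these pairs of intervals overlapped, but they leave out differences between organoid cultures, animals and library depths. Fgf5 had a count in 0.209% of the FGF2 cells (0.129 to 0.317%) and 1.23% of the control cells (0.948 to 1.58%).

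By a size rule of 1.5-fold in the share, 1 of the 4 genes was lower in the FGF2 library and 0 were higher. Over the 2323 genes listed in both library tables, 15.2% were lower and 7.58% higher by the same rule. The log2 ratio of the share, FGF2 over control, was -0.09 for Fgfr1, 0.35 for Fgf7, -0.32 for Fgf10 and -2.56 for Fgf5, against a median of -0.08 over all genes compared. The median of the 4 genes was -0.21. A share cannot exceed all cells, so Fgf7 could have reached at most 1.62-fold and Fgfr1 at most 1.32-fold over control. On the scale of odds (cells with a count over cells without), the log2 ratio of Fgf7 was 1.18, past 1.5-fold, as were 20.5% of 2321 genes in that direction and 36.1% in the other. Among the 224 genes with a mean share under 10%, to which Fgf5 belongs, 112 were lower and 50 higher. From the share over a whole library alone, fewer cells of a type and less RNA per cell cannot be told apart.

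**Figure D1:**
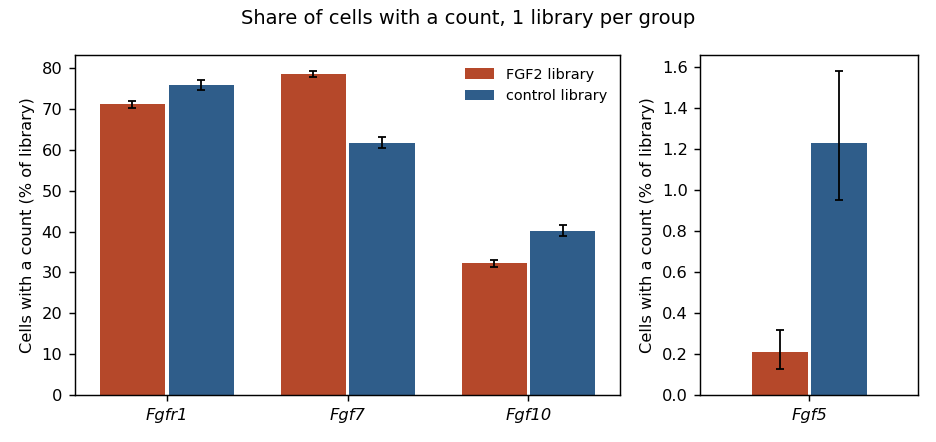
Share of cells with a count (percent of the library, vertical axis) of Fgfr1, Fgf7 and Fgf10 on the left and of Fgf5 on its own axis on the right, with the FGF2 library left of the control library. Bars are recovered shares of 1 library each and error bars are exact 95% binomial intervals at the captured cell numbers. Fgf7 stands at 78.6% against 61.8%, and Fgf5 at 0.209% against 1.23%.

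Fgfr1, the receptor, was higher than in the other cells in 0 FGF2 clusters and in 3 control clusters. It was lower in 5 FGF2 clusters and 3 control clusters. Over all genes tested and the 17 FGF2 clusters, 0.785% of possible entries were listed as higher and 1.48% as lower, and over the 15 control clusters 1.69% and 1.93%. In the authors' deposited table for the control library, Fgfr1 was found in 95.1% of cluster 12 (83.8 to 99.4%), a small cluster led by Ccl2, Mt1 and Hmox1, against 75.7% of the other cells. Its average there was 2.07 times that of the other cells, each with an offset of 1, the highest ratio of Fgfr1 in either library table. Control cluster 1, led by Crabp1 and Mmp3, had Fgfr1 in 92.9% of its cells (90.8 to 94.6%) against 72.9% of the other cells in the authors' deposited table. For control cluster 2, led by Spp1 and Cxcl13, the authors' deposited table gave 85.4% (82.6 to 88.0%) against 74.3%. The intervals of clusters 12 and 1 overlapped, and that of cluster 2 lay below that of cluster 1.

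The other cells of these comparisons include control cluster 4, where Fgfr1 was found in 6.6% of cells (4.63 to 9.05%) against 84.0% of the other cells in the authors' deposited table. With cluster 4 left out, a choice made after the data were seen, the other cells of clusters 12, 1 and 2 held Fgfr1 in 83.9%, 82.3% and 83.8%. For cluster 2 the shares were then 85.4% and 83.8%, while the listed average in the authors' deposited table, with cluster 4 among the other cells, was 1.35 times theirs. The 9 control clusters not listed for Fgfr1, 58.0% of the cells, held it in 83.5% of their cells on average.

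In the FGF2 library 2 stromal clusters were listed for the receptor, both as lower. The 12 clusters not listed, 89.1% of the cells, held Fgfr1 in 72.6% of their cells on average. The contractile cluster 4, led by Acta2 and Tagln, held it in 76.6% (73.5 to 79.6%) against 70.8% of the other cells in the authors' deposited table, with an average 0.758 times theirs. Share and average therefore differed in opposite directions there. This was common in that cluster: 52.1% of its genes listed as lower had the larger share in the cluster, against 5.75% over the whole FGF2 table. FGF2 cluster 13, the cluster of low listed shares led by Acta2, had Fgfr1 in 5.6% of cells (2.46 to 10.8%) against 72.1% in the authors' deposited table. Of the clusters of low listed shares, the FGF2 one led by Gm42418 and Malat1 and the epithelial-like control one had no Fgfr1 entry. They were left out at the mean share of the clusters not listed, 72.6% (FGF2) and 83.5% (control), as their own shares are unknown. On that assumption, the libraries without the 4 clusters held Fgfr1 in 72.2% of the FGF2 cells and 84.0% of the control cells. The log2 ratio was then -0.22 in place of -0.09.

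The 5 non-stromal clusters listed for Fgfr1 were lower. In the authors' deposited tables, Schwann or glial-like cells had it at 16.1% (FGF2 cluster 16, 5.45 to 33.7%) and 24.1% (control cluster 10, 13.9 to 37.2%). The mast-like FGF2 cluster 15 had it in 15.6% (7.63 to 26.5%), and FGF2 cluster 14, led by the neutrophil genes S100a9 and S100a8, in 41.5% (29.0 to 53.7%), per the authors' deposited table. The macrophage-like control cluster 11 had it in 22.6% (12.3 to 36.2%) per the authors' deposited table. The intervals of FGF2 clusters 14 and 16 overlapped, as did those of FGF2 clusters 16 and 15 and of control clusters 10 and 11. Free RNA and expression in those cells cannot be told apart here. Genes listed for FGF2 clusters 16, 15 and 14 were found in a median of 16.1%, 21.9% and 44.6% of their cells. In the rest these medians were 62.7%, 62.75% and 63.8%. For control clusters 11 and 10 the medians were 30.2% and 56.9%, against 67.1% and 59%. The part of depth in the low Fgfr1 shares was not tested.

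Fgf7, the keratinocyte growth factor, was listed in more clusters of each library than the other members. It was listed in 11 of 17 FGF2 clusters and 7 of 15 control clusters, more than 98.2% and 93.3% of the genes listed in those tables. Of the FGF2 clusters 3 were higher and 8 lower, and of the control clusters 1 was higher and 6 lower. Among the listed FGF2 clusters, Fgf7 shares were highest in clusters 7 and 5. Cluster 7, led by Igfbp5, Il11 and Slpi, had 97.1% (95.4 to 98.2%) in the authors' deposited table. Cluster 5, led by Igfbp5, Cd24a and Nr4a2, had 97% (95.5 to 98.1%) in the authors' deposited table. FGF2 cluster 1, led by Cck, Odc1 and Tac1, followed at 93.8% (92.4 to 95%) in the authors' deposited table. Clusters 7 and 5 overlapped in their intervals, and cluster 1 lay below cluster 5.

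By the averages the order was another. Cluster 5 led with 1.87 times the average of the other cells, and clusters 1 and 7 had 1.48 and 1.46 times, in the authors' deposited table. Clusters 1, 5 and 7 supplied 16.8%, 9.05% and 7.47% of the FGF2 cells with an Fgf7 count.

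Among the listed FGF2 stromal clusters other than cluster 13, the lowest ratio of Fgf7 was in cluster 0, led by Nptx1 and Cdkn2a. There Fgf7 was found in 68.6% of cells (66.3 to 70.9%) against 80.5% of the other cells, with an average 0.531 times theirs, in the authors' deposited table. Cluster 8, led by Mgp, Pla1a and Ccl8, had 72.3% (68.5 to 76.0%) against 78.9% and 0.647 times the average in the authors' deposited table. The intervals of clusters 0 and 8 overlapped. Cluster 3, led by Ero1l and Il33, had the larger share, 81% (78.5 to 83.4%) against 78.3%, but 0.760 times the average in the authors' deposited table. In cluster 3, 26.8% of the genes listed as lower had the larger share in the cluster. The 6 clusters not listed for Fgf7, 34.8% of the FGF2 cells, held it in 79.9% of their cells on average.

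**Figure D2:**
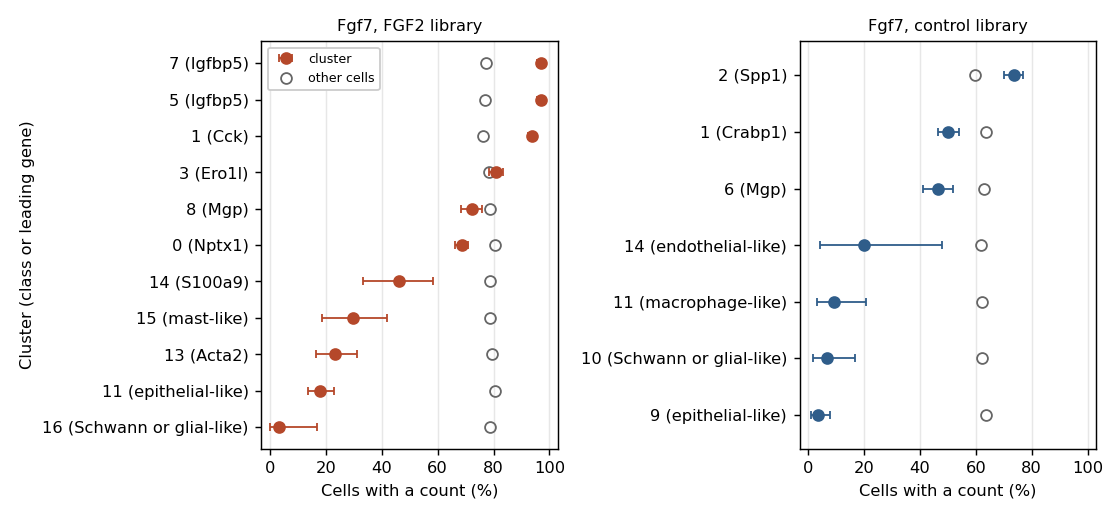
Share of cells with an Fgf7 count (percent, horizontal axis) in each listed cluster of the FGF2 library on the left and of the control library on the right, ordered by share. Filled points are the cluster with an exact 95% binomial interval at the estimated cell number, and open points are all other cells of that library. FGF2 clusters 7, 5 and 1 lie at 93.8% or more, and the non-stromal clusters lie left of all stromal clusters except FGF2 cluster 13.

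In the control library, cluster 2, led by Spp1 and Cxcl13, was the 1 cluster listed as higher for Fgf7. It had Fgf7 in 73.6% of cells (70.1 to 76.8%) against 59.8% of the other cells in the authors' deposited table. Cluster 1, led by Crabp1 and Mmp3, had the opposite sign, at 50.2% (46.4 to 53.8%) against 63.7% in the authors' deposited table. Cluster 6, led by Mgp and Pmepa1, was at 46.5% (41.3 to 51.8%) against 62.9% in the authors' deposited table, and its interval overlapped that of cluster 1. The 8 clusters not listed, 59.1% of the cells, held Fgf7 in 68.6% of their cells on average. Control cluster 4, of low listed shares, was among them, so its Fgf7 share is not known. It could not be left out of the other cells as was done for Fgfr1. Single clusters not listed may therefore hold Fgf7 in a larger share than cluster 2. Control cluster 1 was therefore listed as higher for the receptor Fgfr1 and lower for the ligand Fgf7, the 1 pair of opposite signs among 4 control clusters listed for both genes. In the FGF2 library, Fgfr1 and Fgf7 were both lower in all 4 clusters listed for both.

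Non-stromal clusters listed for Fgf7 were lower in each case. The epithelial-like clusters had Fgf7 in 17.9% of FGF2 cells (cluster 11, 13.6 to 22.8%) and 3.5% of control cells (cluster 9, 1.15 to 8.03%) in the authors' deposited tables. The Schwann or glial-like clusters had it in 3.2% of FGF2 cells (0.0816 to 16.7%) and 6.9% of control cells (1.91 to 16.7%) in the authors' deposited tables. It was in 29.7% of the mast-like FGF2 cluster 15 (18.6 to 41.8%) and 46.2% of FGF2 cluster 14 (33.1 to 58.2%) in the authors' deposited table. The macrophage-like control cluster 11 had 9.4% (3.13 to 20.7%) and the endothelial-like control cluster 14 had 20% (4.33 to 48.1%) in the authors' deposited table. Free RNA and expression in these cells cannot be told apart for Fgf7 either. The Fgf7 shares were not alike among these clusters. The median shares of the genes listed for them differed too, from 7% in control cluster 9 to 56.9% in control cluster 10. The part of depth was not tested. With the non-stromal clusters listed for Fgf7 left out, and 1 of 5 in the control library set to the mean of the clusters not listed, Fgf7 was at 81.2% of the FGF2 cells and 64.8% of the control cells.

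Fgf10, the ligand needed for salivary gland formation, was listed in 1 FGF2 cluster, where it was lower, and in 5 control clusters, 1 of them higher and 4 lower. Control cluster 2 was again the higher one, with Fgf10 in 56.9% of cells (53.1 to 60.6%) against 37.5% of the other cells and an average 1.51 times theirs in the authors' deposited table. It supplied 19.7% of the control cells with an Fgf10 count and 16.6% of those with an Fgf7 count, while holding 13.9% of the cells. Control cluster 4 was not listed for Fgf10 either and stayed among the other cells at an unknown share. Control cluster 6, led by Mgp, had Fgf10 in 16.4% of cells (12.8 to 20.7%) against 42% in the authors' deposited table. The interval of cluster 6 lay below that of cluster 2. All 4 control clusters listed for both ligands, clusters 2, 6, 9 and 10, had the same sign for Fgf7 and Fgf10.

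Among the clusters listed for Fgf10, the epithelial and glial-like ones had the lowest shares. Other clusters, such as the macrophage-like and endothelial-like ones of the control library, had no listed Fgf10 share. The epithelial-like control cluster 9 had 1.4% (0.171 to 4.995%), the Schwann or glial-like cluster 10 had 3.4% (0.420 to 11.9%) and the basal epithelial-like cluster 13 had 3.8% (0.0973 to 19.6%) in the authors' deposited table. These 3 intervals overlapped, and that of cluster 13 reached that of cluster 6. In the Schwann or glial-like FGF2 cluster 16, of about 31 cells, Fgf10 was listed at 0% (up to 11.2%) against 32.3% of the other cells in the authors' deposited table. No stromal FGF2 cluster was listed for Fgf10, and the 16 clusters not listed held it in 32.3% of their cells on average. A ratio under the limit of 0.25 is easily reached by a gene of low average, so the lack of listed clusters does not show an even level.

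Where a cluster has no count of a gene, the listed ratio gives the average itself. For Fgf10 in the FGF2 library, cluster 16 at 0% puts the library average at 0.313 in the authors' normalised unit. For the other genes, an average cannot be below 0 in the lowest cluster, which sets a lower limit. The library average of Fgf10 was at least 0.370 in the control library. That of Fgf7 was at least 2.65 in the FGF2 library and at least 0.889 in the control library, and that of Fgfr1 at least 1.06 and at least 0.677. These limits use the unit of each table, whose scale is not given in the sources used here, so limits of the 2 libraries are not set against each other.

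**Figure D3:**
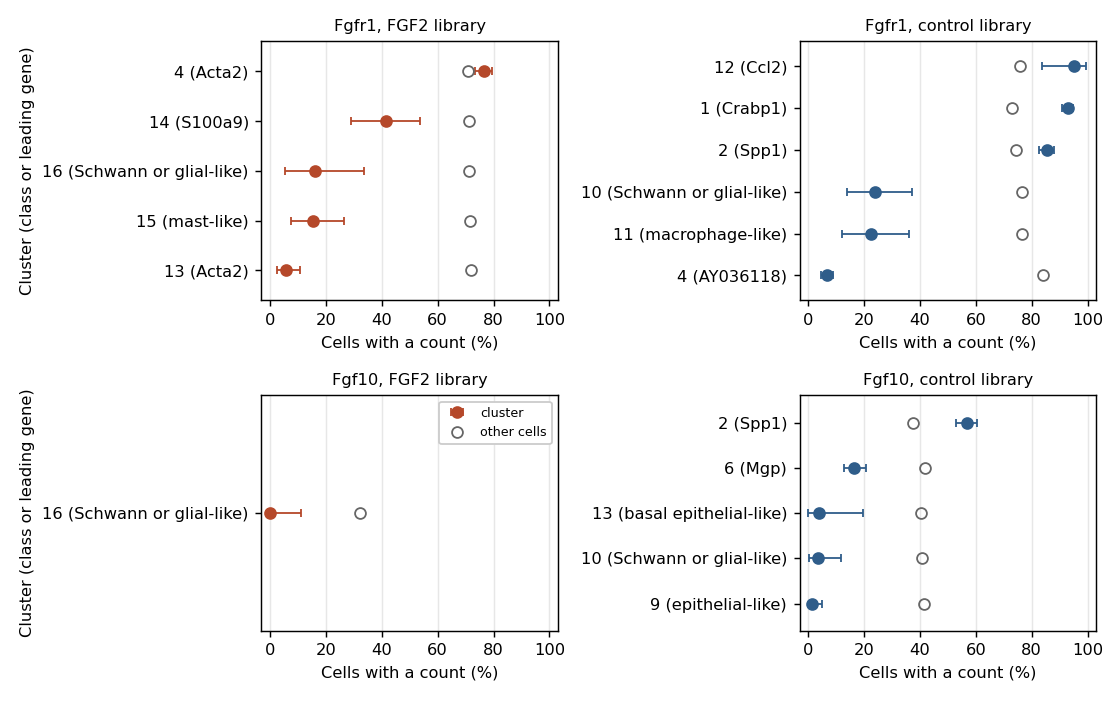
Share of cells with a count (percent, horizontal axis) of Fgfr1 (top) and Fgf10 (bottom) in each listed cluster, with the FGF2 library on the left and the control library on the right. Filled points are the cluster with an exact 95% binomial interval at the estimated cell number, and open points are all other cells. Control cluster 2 is right of the other cells for both genes, and control cluster 4 holds Fgfr1 in 6.6% of its cells.

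Fgf5 was listed in 1 cluster of each table, each time as higher and each time in a Schwann or glial-like cluster. No stromal cluster was listed for this ligand, so its share in stromal cells alone is not given. The cells outside the Schwann or glial-like cluster, most of them stromal, held it in 0.1% (FGF2) and 0.5% (control). In the FGF2 library, 4 of 9 Schwann and glial markers were listed as higher in that cluster, among them Sox10 and Foxd3, although Apod, Atf3 and Postn led it. In the control library 8 of 9 were, and Gap43 and Apod led the cluster. Fgf5 was found in 35.5% of FGF2 cluster 16 (19.2 to 54.6%, about 31 cells) against 0.1% of the other FGF2 cells in the authors' deposited table. It was found in 63.8% of control cluster 10 (50.1 to 76.0%, about 58 cells) against 0.5% of the other control cells in the authors' deposited table. With an offset of 1 added to each, the averages were 3.76 and 3.47 times those of the other cells. The ratios without the offset were larger. The intervals of the 2 clusters overlapped, and the clusters were drawn separately in each library.

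The libraries differed in the size of this cluster, in the share of Fgf5 within it and in the share outside it. The Schwann or glial-like cluster made up 0.307% of the FGF2 cells and 1.15% of the control cells, a 3.75-fold smaller part in the FGF2 library. Its Fgf5-positive cells were 0.109% of all FGF2 cells and 0.735% of all control cells. They made up 52.3% of the FGF2 cells with an Fgf5 count and 59.8% of the control cells with one. Because the share in the other cells is listed to 0.1 percentage points, rounding alone allows 42.2 to 68.6% and 57.5 to 62.3%. The share within the cluster was 1.80-fold higher in the control library. What each of these adds to the library difference was not tested.

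Outside the cluster, rounding allows 0.05 to 0.15% of the FGF2 cells and 0.45 to 0.55% of the control cells. The library shares of Fgf5 lie between 0.159 and 0.259% and between 1.18 and 1.28%, so Fgf5 was 5.89-fold lower in the FGF2 library, with 4.56 to 8.06-fold allowed by rounding. The general level of listed genes differed between the clusters too. Genes listed for FGF2 cluster 16 were found in a median of 16.1% of its cells and 62.7% of the rest, and those for control cluster 10 in 56.9% and 59%, and the part of depth was not tested. In both clusters Fgf7, Fgf10 and Fgfr1 were listed as lower, with the sign opposite to Fgf5. In every entry of the library tables the larger share was at least 25.1%. A gene as rare outside the cluster as Fgf5 could therefore only be listed as higher, so its sign was fixed in advance.

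**Figure D4:**
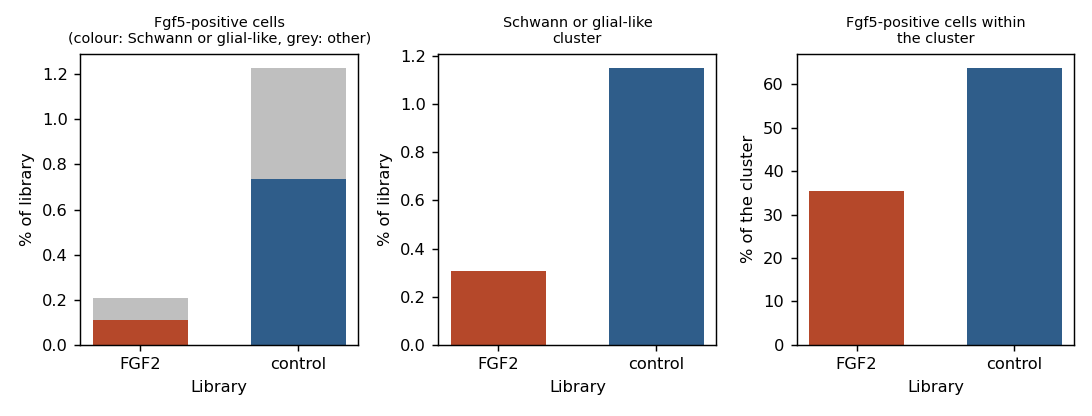
Fgf5 by library, with FGF2 left of control in each panel. The left panel stacks cells with an Fgf5 count in the Schwann or glial-like cluster (colour) and in other cells (grey) as percent of the library, the middle panel shows that cluster as percent of the library, and the right panel shows Fgf5-positive cells as percent of the cluster. The cluster is 0.307% against 1.15% of cells, and holds Fgf5 in 35.5% against 63.8% of its cells.

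Values in the integrated table are batch-integrated, and what is compared there is not expression. Fgfr1 and Fgf10 were not listed there, and with 2802 genes tested it is not known whether they were included. Fgf7 was listed in 10 of 14 integrated clusters, 2 of them higher and 8 lower. Over all genes tested there, 4.13% of possible entries were listed as higher and 5.31% as lower. Integrated cluster 1, led by Igfbp5, Slpi and Il11 as FGF2 cluster 7 was, had the highest ratio, 1.88 times the other cells at a share of 96.2% against 82.2% in the authors' deposited table. Cluster 8, led by Il1rl1, had 1.31 times at 97.3% against 84.0% in the authors' deposited table. The lowest ratios were 0.292 in the Schwann or glial-like cluster 12 and 0.323 in the epithelial-like cluster 9 in the authors' deposited table.

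Shares in the integrated table did not follow those of the libraries. Fgf7 had a value above 0 in 84.5% of all integrated cells, more than the 78.6% and 61.8% of the FGF2 and control libraries. The authors' deposited tables listed Fgf7 in 68.4% of the Schwann or glial-like integrated cluster 12, beside 3.2% and 6.9% in such clusters of the FGF2 and control libraries. Integrated clusters 3 and 10, both led by Mgp, had larger Fgf7 shares than the other cells (88.7% against 83.8% and 93.7% against 84.4%) with ratios of 0.712 and 0.577 in the authors' deposited table. In these clusters 95.4% and 90.9% of all genes listed as lower had the larger share. Fgf5 was listed in integrated cluster 12 alone, at 48.4% against 0.3% and 3.59 times the other cells in the authors' deposited table.

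**Figure D5:**
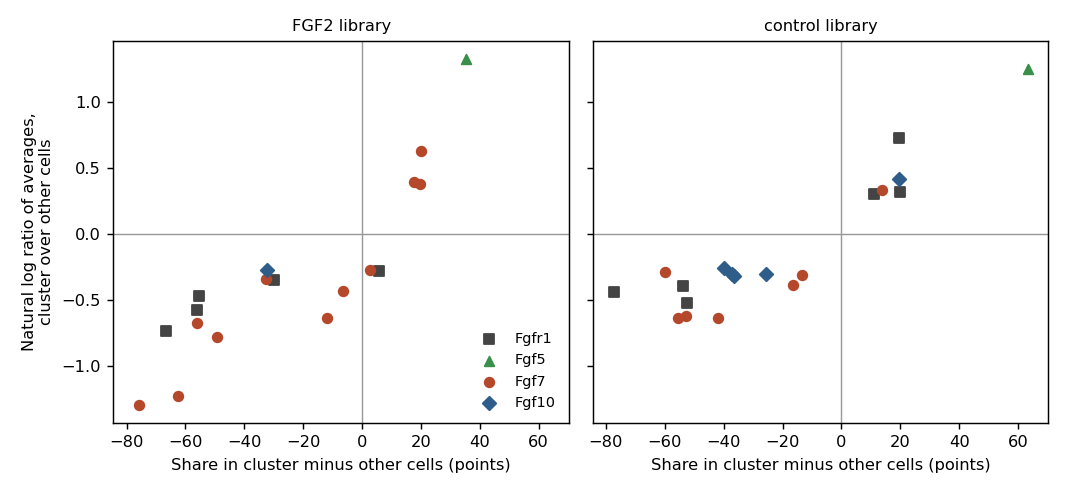
Each listed cluster of the 4 genes, with the share of cells in the cluster minus that in the other cells (percentage points, horizontal axis) against the natural log ratio of the averages (vertical axis), FGF2 library left and control library right. Points at the lower right have the larger share but the lower average, as Fgfr1 in FGF2 cluster 4 (76.6% against 70.8%) and Fgf7 in FGF2 cluster 3 (81% against 78.3%).

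Genes whose log ratios ran most like those of a member were named over clusters listed for both, as a description of 1 library each. For Fgf7 in the FGF2 library, the 5 nearest of 39 candidate genes were Gm12840, Cped1, Cck, Dcn and Twist2, with Pearson r between 0.94 and 0.97 over 9 clusters. Cck also led FGF2 cluster 1, and Dcn and Twist2 are fibroblast genes. In the control library, Ogn, Hacd2, Ptx3, Csf1 and Tmem176b were nearest to Fgf7 among 100 candidates, with r from 0.89 to 0.98 over 6 or 7 clusters. For Fgfr1 in the control library, Kcnq1ot1, Cyp51, Col6a3, Dcn and Lox were nearest among 29, with r from 0.68 to 0.998 over 6 clusters. The clusters share a library and its depth, and include those of low listed shares. Fgf5, Fgf10 and, in the FGF2 library, Fgfr1 were listed in fewer than 6 clusters and were left out.

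Of the other FGF ligands, receptors and pathway genes, 98 symbols in 6 lists, 53 were listed in at least 1 table and 21 in both library tables. By the 1.5-fold rule 2 of the 21 were higher with FGF2 and 3 were lower, with a median log2 ratio of -0.14, beside 7.58% higher and 15.2% lower over all genes compared. None of the 19 other ligands and 4 other receptors was in both tables. Fgf2 itself was listed in the control table at 34.6% of cells, lower in the epithelial-like cluster 9 (0.7% against 35.6%) and listed at 0% in the endothelial-like cluster 14 (against 34.7%) in the authors' deposited table. This concerns the transcript made by the cells, not the protein named in the label of the FGF2 library.

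Fgfr2, the receptor for Fgf7 and Fgf10, was listed in a cluster where Fgf10 was listed as lower. Fgfr2 was listed in the control table alone, in the basal epithelial-like cluster 13, at 65.4% against 9.2% of the other cells in the authors' deposited table. The same cluster had Fgf1, a ligand of all FGF receptors, in 53.8% against 4.6%, and Fgfbp1, a carrier that releases FGFs from matrix, in 34.6% against 0.4% in the authors' deposited table. That cluster was small, about 26 cells. Its Fgf10 entry, at 3.8%, did not reach an adjusted p of the authors under 0.05, and Fgf7 was not listed there. Fgf10 was also listed as lower in control clusters 6, 9 and 10, which were not listed for Fgfr2. Sulf2, which trims heparan sulfate, and Flrt3, a membrane partner of FGF receptors, were listed as higher in the Schwann or glial-like control cluster 10, at 70.7% against 27.9% and 44.8% against 14.2% in the authors' deposited table. They are 2 examples among pathway genes of both signs there. Sulf1 was listed as lower in that cluster, at 1.7% against 33.6% in the authors' deposited table. For that cluster, 967 genes were listed as higher and 637 as lower.

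Among cell surface co-receptors and heparan sulfate proteoglycans, 9 of 20 were compared, 0 of them higher and 1 lower (median log2 ratio -0.20). The lower one was Gpc3, a glypican, at 46.3% of the FGF2 cells and 81.2% of the control cells. The compared syndecans and perlecan, which present FGFs to their receptors, stayed within the rule, as for Sdc4 at 83.4% and 78.2% and Hspg2 at 59.1% and 68.2%. Of 15 heparan sulfate enzymes 2 were compared, and Hs6st2, a sulfotransferase, was lower at 28% and 51.1%. Of the adaptors and kinases, Shc1 and Hras were compared and lay within the rule. Of 8 feedback and target genes compared, 2 were higher and 1 lower, with a median log2 ratio of 0.42. Over all genes compared, 7.58% were higher and 15.2% lower, with a median of -0.08. Dusp6, the ERK phosphatase (64.4% and 28.2%), and Fosl1, an ERK-induced factor (64.0% and 16%), were higher. Spry1, an inhibitor of receptor signalling, was lower (26.4% and 44.6%). Another 3 genes of this list were listed for the FGF2 library alone and 3 for the control library alone.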

How the data were processed

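Single-cell RNA of 1 FGF2 library and 1 control library was read from 3 tables the authors deposited, named for the FGF2 library, the control library and both after integration. The submitters' processing notes name Cell Ranger 4.0 and mm10. The sources used here do not state filters on cells, doublet removal, normalization, clustering or the authors' test, and cell barcodes were not analysed here. Per the file headers, the deposited values are fractions of cells with a count in a cluster and in the other cells (printed as percentages), a log ratio of averages and p-values. The p-values deposited by the authors come from single cells and are not printed. The deposited log ratio was read as natural log with an offset of 1. Over genes at 0% in several clusters, the recovered average then varied by a median 0.0030% (FGF2) and 0.00169% (control), against 0.0334% and 0.0488% with base 2.

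The size of every cluster relative to its library, and then the share of each gene over that library, was recovered by least squares over 1490 FGF2 and 2077 control genes listed in at least 2 clusters (Python 3.11.15, numpy 2.4.6). The parts summed to 99.95% and 100.04%. Clusters were named for a non-stromal type, or as proliferating, from at least 3 listed markers with 1 among the 10 leading genes, and stayed unnamed where another such list led as strongly. Smooth muscle, fibroblast, pericyte, neuron and erythroid lists gave no names. A cluster counted as non-stromal where at least 3 markers of 1 non-stromal type were listed, and more than fibroblast markers. Named genes were the 4 members, pathway genes past the 1.5-fold rule, receptors and ligands, and the 5 genes nearest to a member by Pearson r over at least 6 clusters and 80% of its clusters. A gene outside this rule was named as an example after its values were seen. The members and lists were chosen with earlier results of these data known. The design had no test, since each group was 1 library.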

Additional observations from a re-analysis of the deposited data

How the results depend on the processing

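Of 50 recomputed values, 36 moved less than the counting error or, for counts, less than 1.5-fold, and 14 moved more. None changed sign. Forcing cluster parts to sum to all cells, taking medians over clusters and a 2-fold rule changed no call of the 4 genes. Leaving out the listed non-stromal clusters gave log2 ratios of -0.09 for Fgfr1 and 0.33 for Fgf7. For Fgf5 (-2.32) and Fgf10 (-0.38) this does not set stroma apart from other cells. The values of the FGF2 library, and for Fgf5 of both libraries, are those of all clusters not listed. With odds in place of shares, the log2 ratio was -0.34 for Fgfr1, 1.18 for Fgf7, which then passed the rule, and -0.50 for Fgf10, and 7 of 21 pathway genes were higher and 7 lower, beside 20.5% and 36.1% of all genes compared. With the 2-fold rule 0 pathway genes were lower. Without the 4 clusters of low listed shares, chosen after seeing the data, Fgfr1 was at -0.22. For those of them not listed for Fgfr1, whose shares are unknown, the mean share of the clusters not listed was used. With a natural log ratio of at least 0.5, Fgfr1 was listed in 2 FGF2 and 2 control clusters, Fgf7 in 6 and 3, and Fgf10 in 0 and 0. With an adjusted p of the authors under 0.05, Fgf10 was listed in 0 FGF2 clusters. No paired analysis was possible because each group was 1 library, and for the same reason no replicate could be left out. Depth per cell is unknown, so a share may differ between clusters or libraries through depth.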
